A study of Homo sapiens with 22 samples.

Results

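Among WM989 melanoma cells given 3 signalling agents or left untreated, the authors' clusters 2 and 8 held the cells with the most VGF mRNA. They were taken by their cluster labels, and no other filter was applied: 4292 cells of cluster 2 and 2159 cells of cluster 8, or 6451 VGF-high cells in all, of 40021 cells in 13 clusters. Of the 40021 cells, 35944 lay in 11 non-primed clusters and 4077 in the primed clusters 4 and 10, so the VGF-high cells were compared with 29493 other non-primed cells. WM989 is a BRAF-mutant human melanoma line, here a clone taken through a single cell 2 times, in which a minority of cells sits in a primed state that survives targeted therapy more often. All 8 libraries were made from cells that carried lentiviral lineage barcodes. In each of the replicates r1 and r2 the cells were left untreated (Control) or given TGFB1 protein, TGFBRi (an inhibitor of TGF-beta receptors) or PI3Ki (an inhibitor of PI3 kinase). The study grew the cells of 1 well, split them over 4 plates and ran 2 such sets side by side. A replicate is thus a separate culture of 1 clone. The main tests compare agents within a replicate, so their p-values weigh an effect against its unevenness between the 2 sets. They do not measure the difference between r1 and r2. The sample labels call 1 library of each treatment Mix and the other Primed, a name the deposited cell labels do not tie to r1 or r2, so a different start of the sets cannot be told apart from the replicate. The 8 libraries held 3692 to 6273 cells and 70239657 to 122420544 unique molecular identifiers (UMIs, each marking 1 captured mRNA molecule), with a median of 13013 to 21720.5 UMIs in a cell. The VGF-high cells gave 2850661 to 29897391 UMIs per library. Of 39827 cell barcodes, 194 (0.487%) occurred in more than 1 library, and these took in 67 VGF-high cells (1.04%) and 0.956% of the other non-primed cells.

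VGF encodes a secreted protein of the granin type that neurons and endocrine cells pack into dense-core vesicles and cut into neuropeptides. It is known as a gene induced by nerve growth factor through cAMP-response element binding proteins and the MAP kinase pathway. Melanocytes come from the neural crest, as sympathetic neurons and chromaffin cells do, and melanoma cells can express neural and neuroendocrine genes.

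The VGF gene lies on the minus strand of chromosome 7 and spans chr7:101162509-101169952 over all its RefSeq transcripts in GRCh38.p14. The promoter table uses a transcript start inside that span, at 101165569, which is also where the GENCODE v44 gene starts. Its promoter is shown because VGF sets the cells apart and because a cAMP-response element (CRE, TGACGTCA) and an E-box (CACGTG) can be read in it, both of which are printed in capitals. The 300 bases below, from the RefSeq promoter table, cover chr7:101165520-101165819, from 250 bases before that transcript start to 50 after it, read 5′ to 3′ on the gene's strand.
VGF promoter: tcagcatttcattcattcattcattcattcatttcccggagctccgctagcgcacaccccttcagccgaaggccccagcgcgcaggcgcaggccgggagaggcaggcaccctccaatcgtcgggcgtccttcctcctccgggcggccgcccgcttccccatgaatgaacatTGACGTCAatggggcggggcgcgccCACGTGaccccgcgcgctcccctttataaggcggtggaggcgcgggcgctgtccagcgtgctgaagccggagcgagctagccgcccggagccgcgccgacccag
The CRE begins 79 bases before the start and the E-box 54 bases before it, and they do not overlap. Searched on both strands, a CRE was found in 1.85% and an E-box in 7.26% of 35116 promoters of the same length, and 57 of them (0.162%) held both. A match is a run of letters, not a measured site. Of the 7 marker genes, VGF, SERGEF, TPD52L1 and EYA4 were matched in the table, and among these TPD52L1 and SERGEF held neither motif. In sorted untreated WM989 cells, the deposited ATAC-seq peak lists had a peak over this window in all 12 libraries. Its fold enrichment was 55.4 ± 4.62 (SD, n = 3) in the libraries labelled Mix, 47.7 ± 6.45 in EGFR-high, 49.8 ± 4.54 in NGFR-high and 51.4 ± 4.06 in doubly high cells, and the sorts lay within 2 of their SDs of each other. The study's methods name cells negative for both markers, not mixed cells, beside the other 3 sorts. VGF-high cells were not sorted for ATAC-seq.

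VGF itself reached a median of 4078 CPM, the count scaled to a total of 1000000 UMIs in a cell, in the VGF-high cells. The middle 90% of them lay between 1836 and 10015 CPM, and the highest cell reached 34489 CPM. In the other non-primed cells the median was 164 CPM, the 95th percentile 1949 CPM and the highest cell 16416 CPM. The per-cell median was 4202 CPM in cluster 2 and 3913 CPM in cluster 8, and the next cluster, the primed cluster 10, had 989 CPM. The remaining 10 clusters ranged from 47.1 CPM in cluster 3 to 425 CPM in cluster 12. VGF took 0.456% of all UMIs of the VGF-high cells against 0.0510% in the other non-primed cells, and the VGF-high cells gave 63.4% of all VGF UMIs of the experiment. After each cell was thinned to 5000 UMIs, 99.97% of VGF-high and 56.4% of other non-primed cells kept a VGF UMI, against 99.98% and 76.5% before thinning, and 1 VGF-high and 16 other cells were too shallow to be thinned. The clusters were drawn from these same cells' genes, so the levels describe the clusters and are no test of them.

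**Figure D1:**
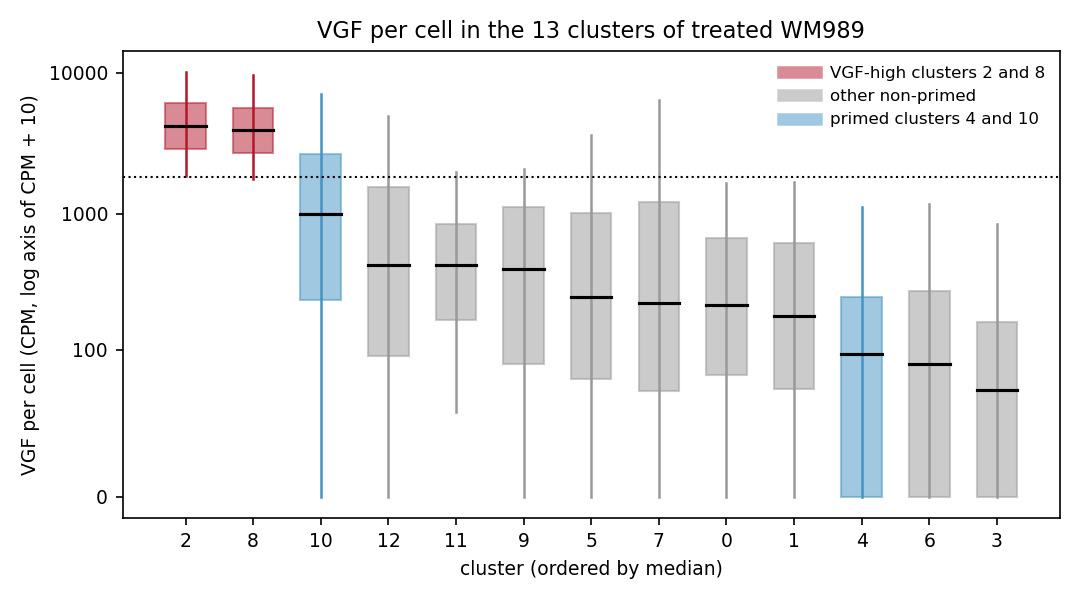
VGF level per cell (CPM + 10, log axis) in the 13 clusters, ordered by median. Boxes span the 25th to 75th and thin lines the 5th to 95th percentile of cells, black bars are medians, and the dotted line marks 1836 CPM. Clusters 2 and 8 stand at the top, with medians of 4202 and 3913 CPM against 989 CPM in cluster 10.

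The separation was present in each library. Summed over the VGF-high cells, VGF stood at 4318 CPM in r1 and 4388 CPM in r2 of the untreated cells. It was 4058 and 4496 CPM with TGFB1, 4343 and 4267 CPM with PI3Ki, and 4747 and 4955 CPM with TGFBRi. Over the other non-primed cells it was 372 and 560 CPM untreated, 204 and 487 CPM with TGFB1, 376 and 524 CPM with PI3Ki, and 617 and 965 CPM with TGFBRi. The summed level of the VGF-high cells lay above that of the other cells in every library, also across libraries, and the ratio between them was 8.93 over all libraries, with a range of 5.13 to 19.9 over the 8 libraries. A level of 1836 CPM, the 5th percentile of the VGF-high cells, was passed by 95.4% of cluster 2, 94.2% of cluster 8 and 5.69% of the other non-primed cells. Of 7805 non-primed cells over it, 78.5% were in clusters 2 and 8, 11.8% in clusters 5 and 7 and 6.73% in clusters 0 and 1. Cells of clusters 5 and 7 were nearly all called G2/M, 94.98% and 100% of them. High VGF was not confined to non-primed cells, and the paper lists VGF among growth factors upregulated in the primed state. Summed by library, the primed cells had 147 to 2654 CPM of VGF, with a median of 1389 CPM. The same median was 506 CPM in the other non-primed cells.

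The other 6 genes that mark the clusters were higher in VGF-high than in other non-primed cells in all 8 libraries, by smaller ratios. Over the 5668 genes with at least 20 CPM in either class, 1213 (21.4%) were higher and 585 (10.3%) lower in each of the 8 libraries, so a steady direction alone is common, and 19 genes passed a pooled ratio of 1.5. SPRR2D, a small proline-rich protein of the cornified envelope, stood at a ratio of 2.96 (2.81 to 4.86 over libraries). APOD, the lipid-carrying apolipoprotein D, stood at 2.43 (1.83 to 5.92). SERGEF, a guanine nucleotide exchange factor linked to secretion, stood at 2.23 (1.64 to 2.50), and COL6A5, a collagen VI chain, at 1.80 (1.38 to 2.63). The share of cells with a UMI at equal depth moved with these ratios: SERGEF was found in 22.3% of thinned VGF-high and 10.7% of other cells, TPD52L1 in 18.7% and 12.2%, EYA4 in 13.3% and 9.15%, APOD in 11.9% and 6.34%, SPRR2D in 9.57% and 2.94%, and COL6A5 in 7.41% and 4.35%. Without thinning the shares were 51.1% and 29.4% for SERGEF and 24.6% and 9.66% for SPRR2D. VGF was thus the only one of the 7 markers found in nearly every VGF-high cell. SPRR2D belongs to a family of near-identical genes, so its reads may be split among copies. SPRR2A had 15 UMIs in the VGF-high cells and SPRR2E none.

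VGF, SERGEF and SPRR2D had clusters 2 and 8 as their highest pair among the 13 clusters. Cluster 2 came first for VGF and cluster 8 for SERGEF and SPRR2D. EYA4, a transcriptional coactivator and phosphatase, ranked 1 in cluster 2 and 3 in cluster 8. In counts pooled over libraries, APOD was highest in the primed cluster 10 at 48.7 CPM, and COL6A5 and TPD52L1, a member of the tumor protein D52 family, were highest in cluster 9 at 44.8 and 53.2 CPM. In clusters 2 and 8, COL6A5 had 21.4 and 20.4 CPM and TPD52L1 46.6 and 37.1 CPM. This pooled order depends on how many cells each library gave a cluster. By library APOD in cluster 2 ran from 17.6 through a median of 49.7 to 126 CPM, and COL6A5 from 7.17 through 18.7 to 55.6 CPM. Pooled, APOD had 39.3 and 27.9 CPM, EYA4 31.6 and 24.1 CPM, and SERGEF 54.3 and 54.8 CPM.

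The 2 clusters differed in their phase of the cell cycle. The authors' calls put 55.8% of cluster 2 in G1, 39.8% in S and 4.45% in G2/M, against 0.88%, 58.2% and 40.9% of cluster 8. Clusters 0 and 1, the largest non-primed clusters, were split alike, with 54.2%, 43.5% and 2.33% in cluster 0 and 0.555%, 54.5% and 44.9% in cluster 1. Cluster 2 had a median of 15486 UMIs in a cell and cluster 8 19239, and clusters 0 and 1 had 15631 and 19975. Cluster 2 was therefore set against cluster 0 and cluster 8 against cluster 1, so that the phase was nearly the same on both sides.

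With the phase matched, VGF was 10.6 times higher in cluster 2 than in cluster 0 and 10.2 times higher in cluster 8 than in cluster 1. Of 5388 genes measured in both pairs, 269 were higher and 135 lower in all 8 libraries of both (in the first pair alone 10.5% higher and 6.28% lower, in the second 11.6% and 5.93%), and 12 passed a ratio of 1.5 in both, while no lower gene passed the inverse of that ratio in both. SERGEF was at 2.26 and 2.08 in the first and second pair, APOD at 3.42 and 1.98, COL6A5 at 3.92 and 1.66, and TPD52L1 at 1.83 and 1.52. These ratios were pooled over libraries that gave the clusters unequal shares of cells. By library COL6A5 ran from 1.197 through a median of 2.84 to 4.42 in the first pair and from 1.03 through 1.78 to 2.995 in the second. APOD ran from 1.85 through 3.49 to 6.05 and from 1.77 through 2.16 to 4.19. GPC6, a glypican of the cell surface, was at 2.17 and 1.66. PLAAT3, a phospholipase and acyltransferase, was at 2.45 and 1.56, and ECM1, an extracellular matrix protein, at 1.64 and 1.51. ISG20, an exonuclease induced by interferon, was at 1.501 and 1.69, IER3, an immediate early gene, at 1.92 and 1.49, and ADM, the vasodilator peptide adrenomedullin, at 1.78 and 1.45. Among the 135 genes lower in all 8 libraries of both pairs, CYP7B1, CHL1 and SAT1 had the lowest ratios, ranked by the larger ratio of a gene. CYP7B1, an oxysterol hydroxylase, was at 0.695 and 0.666 and the neural adhesion gene CHL1 at 0.689 and 0.737. SAT1, which acetylates polyamines, was at 0.727 and 0.752. SNAI2, a transcription factor of the neural crest and of epithelial to mesenchymal transition, was at 0.607 and 0.775, and FABP7, a fatty acid binding protein of the neural crest lineage, at 0.665 and 0.780. These 15 higher and 15 lower genes were picked from the ratios themselves.

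**Figure D2:**
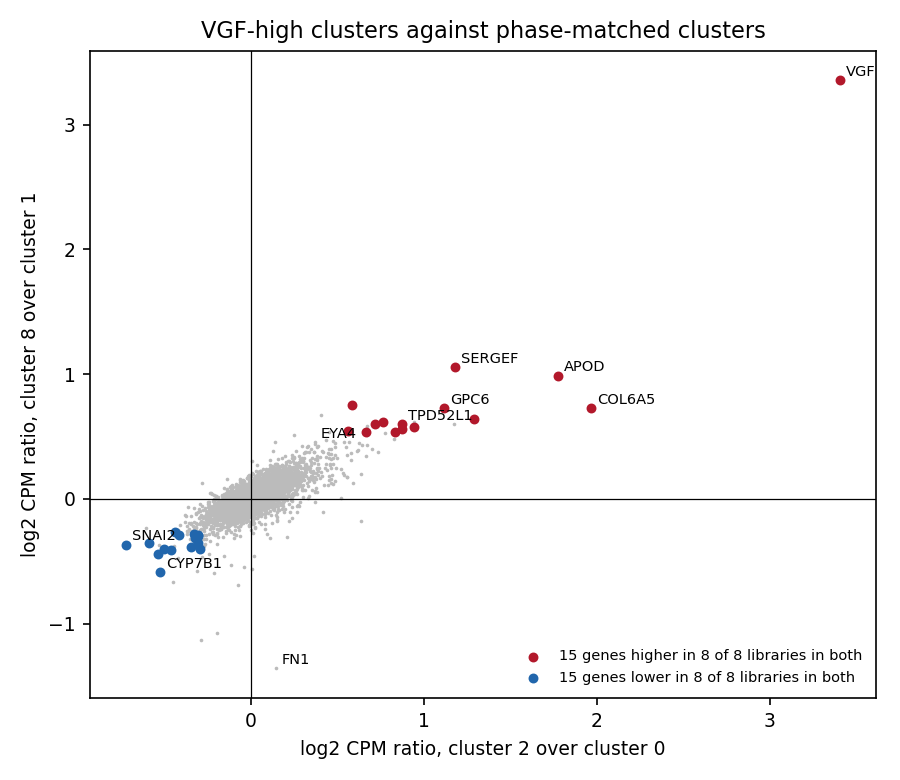
log2 ratio of cluster 2 to cluster 0 (x axis) and of cluster 8 to cluster 1 (y axis) for each gene with at least 20 CPM, 1 point a gene. Among genes with the same direction in all 8 libraries of both pairs, red points are the 15 highest and blue points the 15 lowest. VGF stands alone at ratios of 10.6 and 10.2, and the lower genes lie near ratios of 0.6 to 0.8.

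VGF was the only granin or granin-processing gene of the list at 20 CPM or more in these cells. SCG2, the precursor of secretoneurin, was at 3.48 CPM in VGF-high and 3.40 CPM in other non-primed cells and at 46.9 CPM in primed cells. Most primed cells came from the TGFB1 libraries, so this last value mixes state with agent. CHGB was at 0.435 CPM, the processing enzyme PCSK1 at 0.0709 CPM and the carboxypeptidase gene CPE at 0.381 CPM. CHGA and PCSK1N had no UMI, which allows a level of up to 0.0266 CPM from counting error alone.

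Some genes that respond to cAMP and immediate early genes were higher in the phase-matched pairs. Of 7 at 20 CPM or more, 3 were higher in all 8 libraries of cluster 2 against cluster 0 and 4 in cluster 8 against cluster 1, where 10.5% and 11.6% of all genes were. FOS was at ratios of 1.498 and 1.29, NR4A1, an orphan nuclear receptor, at 1.30 and 1.18, and CREM, a CRE-binding modulator of cAMP signals, at 1.60 and 1.499. Against all other non-primed cells only CREM of the 7 was higher in each library, at 1.64, where 21.4% of all genes were. PDE4B, a cAMP phosphodiesterase, had no steady direction in either pair. Of 12 genes downstream of ERK, 4 were higher and none lower in all 8 libraries of cluster 2 against cluster 0. In cluster 8 against cluster 1, 3 were higher and 2 lower, where 11.6% of all genes were higher and 5.93% lower. DUSP6, a phosphatase that acts on ERK, was at 1.60 and 1.42 and IER3 as above. SPRED1 was at 0.994 and 0.937 and ETV5 at 0.960 and 0.970. Of 8 genes of the ATF4 stress response, 5 were higher in all libraries against the other non-primed cells, where 21.4% of all genes were, and none lower. With the phase matched it was none of the 8 in the first pair and 6 in the second. DDIT4, an inhibitor of mTORC1, was at 1.42 against the other non-primed cells. Of 6 hypoxia and glycolysis genes 5 were higher in all libraries against these cells, with LDHA at 1.16 and ADM at 1.31, and 1 and 5 in the first and second pair. Against the other non-primed cells the medians of these lists were 0.202 and 0.202 on the log2 scale, against 0.0268 over all genes.

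Sterol synthesis genes stood lower against the other non-primed cells. Of 13 sterol and fatty acid genes, 7 were lower in all 8 libraries against the other non-primed cells, where 10.3% of all genes were, and none higher, with a median of -0.20 on the log2 scale. In cluster 2 against cluster 0 none of the 13 was lower in all libraries, and in cluster 8 against cluster 1 it was 4, where 6.28% and 5.93% of all genes were, with medians of -0.0700 and -0.0707. HMGCS1, an early enzyme of cholesterol synthesis, was at a ratio of 0.613 and the squalene epoxidase SQLE at 0.767. In these pairs HMGCS1 was at 0.733 in the first pair, with 6 of 8 libraries lower, and at 0.631 in the second, with 8 of 8 lower.

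Melanocyte genes lay near their level in the other non-primed cells. MITF, the master regulator of melanocytes, was at 340 CPM, SOX10 at 142 CPM, PMEL at 2814 CPM and MLANA at 1272 CPM, and of 14 such genes 2 were higher and 1 lower in all libraries than in the other non-primed cells, with a median of -0.0378, where 21.4% of all genes were higher and 10.3% lower. Receptors that mark primed cells were low: EGFR was at 1.37 CPM (primed cells, 15.9), AXL at 0.302 CPM (38.0) and NGFR at 1.11 CPM (28.4). The primed values in this paragraph are pooled over libraries and mix state with agent. Of 4077 primed cells, 1577 and 1757 came from the TGFB1 libraries of r1 and r2. NT5E, the ectonucleotidase CD73 used to mark primed cells, was at 26.0 CPM against 17.1 CPM in other non-primed and 108.7 CPM in primed cells. The authors' primed score, a rank score per cell, had a median of 0.381 in VGF-high, 0.378 in other non-primed and 0.453 in primed cells. Of 5 primed-state genes at 20 CPM or more, 2 were higher and 1 lower in all 8 libraries against the other non-primed cells. Their median log2 ratio was 0.0427. In cluster 8 against cluster 1 it was also 2 and 1, where 11.6% and 5.93% of all genes were. In cluster 2 against cluster 0 it was none. The median of the 5 was 0.278 in each of these pairs, against 0.0198 and 0.0183 over all genes. FN1, fibronectin, was lower than in the other non-primed cells in each library, but its ratio ran from 0.137 and 0.166 in the TGFB1 libraries to 0.905, with 0.581 and 0.431 untreated and a median of 0.559. In cluster 2 against cluster 0 its pooled ratio was 1.11 with 6 of 8 libraries lower, and in cluster 8 against cluster 1 it was 0.390 with 8 of 8 lower (0.308 to 0.952). Among other collagen VI chains, COL6A1 ranged from 13.5 to 22.4 CPM over the libraries of VGF-high cells and from 15.1 to 28.8 CPM in clusters 0 and 1, and COL6A2 from 4.35 to 8.85 CPM and from 6.22 to 16.1 CPM. Both were lower in the VGF-high cells in 7 of 8 libraries and higher in untreated r1. TPD52 and TPD52L2 were at 130.0 and 55.1 CPM against 125.5 and 54.4 CPM.

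Markers of other cell types had sums far below that of the 18 melanocyte genes, which was 4814 to 6696 CPM over the 8 libraries of VGF-high cells. Summed keratinocyte markers ranged from 80.5 to 110 CPM over the 8 libraries in VGF-high cells and from 74.7 to 93.7 CPM in the other non-primed cells. Pooled over libraries the sums were 93.7 and 84.3 CPM. KRT10 made up 70.9 CPM of the sum in VGF-high cells. SPRR2D, itself a marker of the clusters, made up 22.1 CPM there and 7.46 CPM in the other non-primed cells. Of the 17 markers 9, KRT5, KRT14 and TP63 among them, had no UMI. Summed fibroblast markers ranged from 24.1 to 45.3 CPM against 20.9 to 36.4 CPM, mostly LUM at 29.3 CPM. Summed leukocyte markers ranged from 36.1 to 58.5 CPM against 32.1 to 39.7 CPM, mostly CD68 at 51.5 CPM, with PTPRC at 0.106 CPM and CD3E at 0. Within libraries each of these 3 sums was higher in the VGF-high cells in 8 of 8, and their part in the other results was not tested. The keratinocyte sum includes SPRR2D, which marks the clusters, so its direction is no separate sign of keratinocyte genes. Endothelial markers summed to between 0.296 and 1.05 CPM against 0.301 to 0.808 CPM. Doublets were not called anew, since the authors had removed cells with very many genes, and the VGF-high cells had a median of 16673 UMIs and 4125 genes against 16865 and 4101 in the other non-primed cells, with 10.8% mitochondrial UMIs in both.

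Set against each other, clusters 2 and 8 differed in cell cycle genes among others. Of 5806 genes, 1043 (18%) were higher and 750 (12.9%) lower in cluster 8 in all 8 libraries. All 15 mitosis genes and all 10 histone genes at 20 CPM or more were higher in cluster 8, and 12 of 17 DNA replication genes. The linker histone HIST1H1A was at a ratio of 10.2, HIST1H3G at 9.82, the topoisomerase TOP2A at 9.01 and the kinetochore gene SPC25 at 8.51. MYC was at 0.404, AHNAK, a large scaffold protein, at 0.452, POU3F1, a POU-domain transcription factor, at 0.484 and CITED1, a transcriptional coregulator of melanocytes, at 0.548.

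High VGF and the other markers went together in the mitotic clusters as well. There 920 cells were over 1836 CPM of VGF and 4495 under it. SPRR2D was 2.50 times, APOD 2.65 times and SERGEF 2.11 times higher in the cells over that level, and each was higher in 8 of 8 libraries. TPD52L1 stood at 1.59 and EYA4 at 1.54, also in 8 of 8, and COL6A5 at 1.76 in 6 of 8, where 6.68% of all genes were higher in 8 of 8. Within clusters 2 and 8, the cells were also ordered by their VGF level into 4 parts of 1612 or 1613 cells. From the lowest to the highest part APOD went from 23.5 to 50.7 CPM, SERGEF from 46.0 to 65.6 CPM, SPRR2D from 16.3 to 31.6 CPM, COL6A5 from 16.2 to 26.8 CPM, TPD52L1 from 38.3 to 46.4 CPM and EYA4 from 26.0 to 31.0 CPM. The mean UMIs per cell went from 19030 to 15796 and the share of cluster 8 from 37.4% to 29.5% over the same order, and what these shifts add to the values was not tested. With the 4 parts cut within each library instead, the highest part was above the lowest in 8 of 8 libraries for APOD (median ratio 2.22) and SPRR2D (2.02), in 7 for SERGEF (1.48), in 6 for TPD52L1 (1.10) and EYA4 (1.12) and in 5 for COL6A5 (1.61).

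The share of VGF-high cells among non-primed cells was compared between the agents. Untreated, it was 10.6% (95% Clopper-Pearson interval 9.71 to 11.6) in r1 and 19.7% (18.4 to 21.1) in r2. With TGFB1 it was 4.22% (3.603 to 4.90) and 11.5% (10.5 to 12.6), and with PI3Ki 14.6% (13.5 to 15.7) and 18.6% (17.6 to 19.7). With TGFBRi it was 20.2% (19.1 to 21.3) and 34.4% (33.2 to 35.6). In both replicates TGFB1 gave the lowest and TGFBRi the highest share, by -6.43 and -8.17 percentage points from the untreated cells with TGFB1 and by 9.55 and 14.7 points with TGFBRi, whereas PI3Ki differed by 3.92 and -1.07 points. The 4 treatment means of 15.2% untreated, 7.88% with TGFB1, 16.6% with PI3Ki and 27.3% with TGFBRi spanned 19.4 points. An exact permutation test of the spread of the 4 means, with treatment labels permuted within r1 and r2, gave p = 0.0833, where the smallest p the design allows is 0.0417, so the shares did not differ beyond the threshold of 0.05. The r2 share was above the r1 share under every agent, and the intervals cover counting error only.

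The shares by cluster had the same order. Cluster 2 held 6.83% and 13.7% of untreated non-primed cells in r1 and r2, 2.60% and 8.29% with TGFB1, 9.72% and 13.3% with PI3Ki, and 12.8% and 22.1% with TGFBRi. Cluster 8 held 3.82% and 6.01%, 1.61% and 3.24%, 4.85% and 5.36%, and 7.42% and 12.2% in the same order. Cluster 8 made up 33.2% of the VGF-high cells untreated, 33.2% with TGFB1, 31.0% with PI3Ki and 36.2% with TGFBRi on average, a span of 5.14 points (exact permutation p = 0.458). The clusters were drawn over all treatments from the cells' own genes, so a cell that an agent changed strongly can lie in another cluster. Without clusters 3 and 6 in the denominator the TGFB1 shares were 9.83% and 20.05% against 11.2% and 20.3% untreated, PI3Ki 20.6% and 23.5%, and TGFBRi 20.4% and 34.6%, with a span of 12.6 points and p = 0.125 by the exact permutation test. The TGFB1 shares then lay within 1.5 points of the untreated ones. In r1 PI3Ki and not TGFBRi then had the highest share. Cluster 3 held 1.38% and 1.67% of the untreated non-primed cells and 56.8% and 41.96% with TGFB1, and cluster 6 held 3.18% and 1.11% untreated and 28.8% and 19.9% with PI3Ki. Primed cells, left out of these shares, were 2.26% and 4.47% of all cells untreated but 29.1% and 31.3% with TGFB1. VGF-high cells were 10.4% and 18.8% of all cells untreated and 2.99% and 7.93% with TGFB1. All non-primed cells over 1836 CPM of VGF were also counted, which uses only the border to the primed clusters. Their share was 12.4% and 23.7% untreated, 5.36% and 16.1% with TGFB1, 16.5% and 22.1% with PI3Ki, and 24.6% and 41.4% with TGFBRi. In the mitotic clusters 5 and 7 the share over that level was 8.41% and 19.3% untreated, 5.23% and 14.5% with TGFB1, 10.8% and 18.1% with PI3Ki, and 16.6% and 31.2% with TGFBRi, with p = 0.0833 (exact permutation) for both of these measures.

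**Figure D3:**
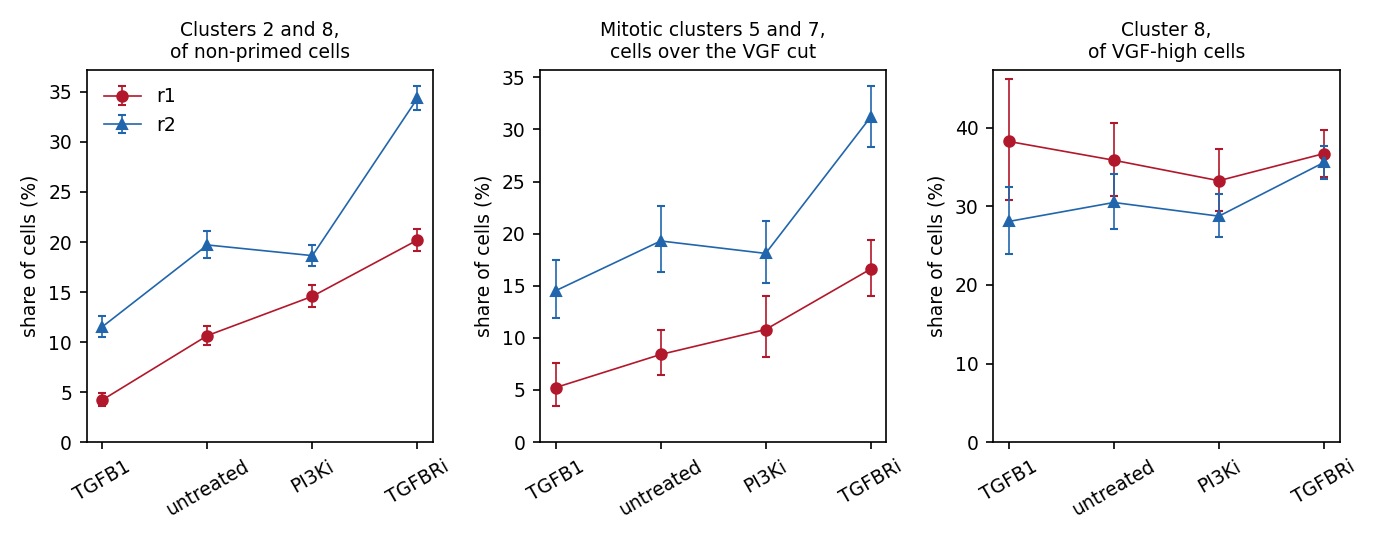
Percent of non-primed cells in clusters 2 and 8 (left), of mitotic clusters 5 and 7 cells over 1836 CPM of VGF (middle) and of VGF-high cells in cluster 8 (right) under each treatment. Circles are r1 and triangles r2, joined within a replicate, with 95% Clopper-Pearson bars. Both replicates are lowest with TGFB1 and highest with TGFBRi in the left and middle panels, at 4.22% and 34.4% at the extremes of the left panel.

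Within the VGF-high cells, VGF passed the test with no agent, while several of the other markers did. edgeR's quasi-likelihood test with a replicate term, fitted over 13632 genes with Benjamini-Hochberg adjustment, gave VGF log2 changes of -0.04 ± 0.07 (SE) with TGFB1, 0.05 ± 0.07 with PI3Ki and 0.18 ± 0.07 with TGFBRi, with adjusted p of 0.886, 0.828 and 0.314. The cells were grouped by clusters in which VGF is the leading gene, so little room for a change of VGF was left.

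APOD had 32.5 and 17.97 CPM in r1 and r2 of the untreated VGF-high cells, 109 and 50.3 CPM with TGFB1, 52.9 and 53.0 CPM with PI3Ki and 29.3 and 17.5 CPM with TGFBRi. The TGFB1 and PI3Ki libraries lay above both untreated libraries, and the log2 changes were 1.59 ± 0.15 (adjusted p = 1.5e-10) and 1.25 ± 0.13 (adjusted p = 5.99e-09). SERGEF had 58.0 and 71.6 CPM untreated, 37.9 and 47.9 CPM with TGFB1, 29.98 and 49.2 CPM with PI3Ki and 44.3 and 65.6 CPM with TGFBRi. It fell with TGFB1 by 0.63 ± 0.11 (adjusted p = 0.000158) and with PI3Ki by 0.64 ± 0.09 (adjusted p = 7.4e-06), and its change with TGFBRi, -0.22, did not pass (adjusted p = 0.326). COL6A5 differed more between replicates than between most agents, at 9.10 and 28.5 CPM untreated, 15.1 and 59.4 CPM with TGFB1, 11.2 and 29.0 CPM with PI3Ki and 5.45 and 16.8 CPM with TGFBRi. Within each replicate it was highest with TGFB1 and lowest with TGFBRi, and with the replicate term it rose by 0.99 ± 0.12 (adjusted p = 2.72e-07) and fell by 0.73 ± 0.12 (adjusted p = 0.000103).

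SPRR2D rose with PI3Ki, from 21.7 and 20.999 CPM to 30.2 and 30.4 CPM, by 0.57 ± 0.10 on the log2 scale (adjusted p = 0.000245), and stood at 21.4 and 24.3 CPM with TGFB1 and 16.8 and 16.4 CPM with TGFBRi, neither of which passed. TPD52L1 fell with TGFBRi, from 43.0 and 55.9 CPM to 30.6 and 40.7 CPM, by 0.45 ± 0.09 (adjusted p = 0.00335), and with PI3Ki, to 28.8 and 45.5 CPM, by 0.34 ± 0.09 (adjusted p = 0.026). Both TGFBRi libraries of TPD52L1 lay below both untreated ones, while the PI3Ki libraries overlapped them. EYA4 stayed between 25.4 and 33.3 CPM in all 8 libraries and passed with no agent. APOD with TGFB1 kept its call in each setting tried. Without TGFB1 r2 the TGFB1 changes of SERGEF (-0.50) and COL6A5 (0.63) did not pass, and without Control r2 neither did COL6A5 with TGFBRi (-0.70) nor SPRR2D with PI3Ki (0.53), which also failed without PI3Ki r2 (0.56). TPD52L1 lost its call with PI3Ki without either untreated or either PI3Ki library (-0.52 to -0.23), and with TGFBRi without either untreated library or TGFBRi r2 (-0.51 to -0.40).

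**Figure D4:**
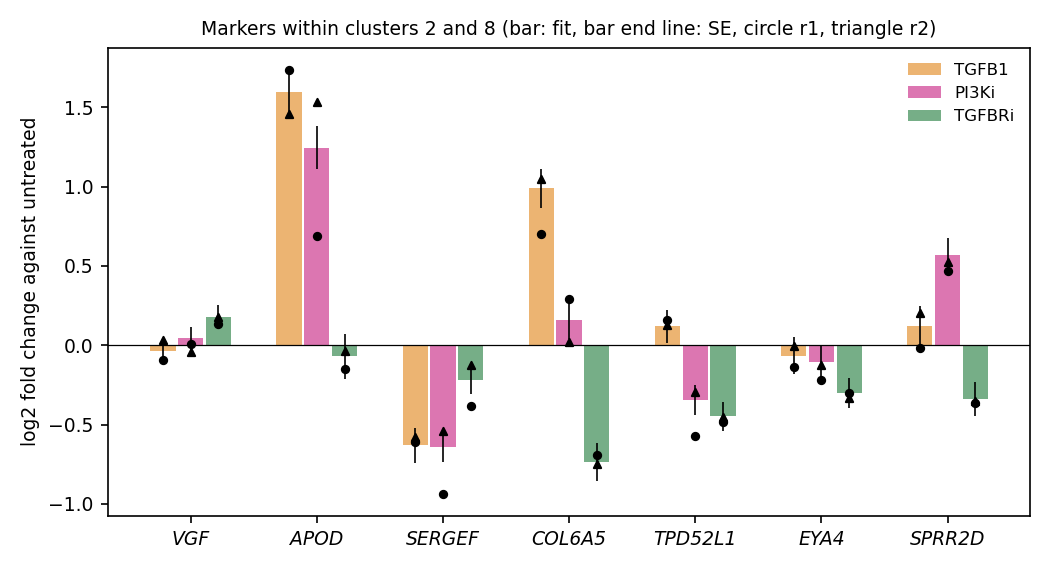
log2 change of the 7 marker genes against untreated within clusters 2 and 8, for TGFB1, PI3Ki and TGFBRi. Bars are edgeR estimates with the SE as lines, circles the change in r1 and triangles that in r2. APOD is raised by 1.59 with TGFB1 and 1.25 with PI3Ki, SERGEF is lowered by both, and the VGF bars stay within 0.2 of no change.

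TGFB1 moved known TGF-beta targets within the VGF-high cells. In all, 209 genes (1.53% of those tested) rose and 116 (0.851%) fell, or 2.38% in either direction. PMEPA1, which encodes an inhibitor of TGF-beta signalling and is a direct target of it, went from 4.49 and 3.03 CPM untreated to 35.8 and 40.6 CPM, a log2 change of 3.44 ± 0.17 (adjusted p = 1.9e-19). FN1 went from 26.6 and 25.4 CPM to 102 and 117 CPM, by 2.08 ± 0.12 (adjusted p = 3.22e-18). For both genes the TGFB1 libraries were far above the untreated ones in each replicate. Of 14 TGF-beta target genes tested, 5 rose and none fell, with a median log2 change of 0.54 against -0.000715 over all genes. SKIL, a SMAD-binding repressor, rose by 2.32 and SMAD7, the inhibitory SMAD, by 0.73. CDKN1A, the cyclin-dependent kinase inhibitor p21, rose by 1.35, IGFBP5 by 1.30, S100A2 by 1.202 and FGF1 by 1.25. MYC fell from 148 and 142 CPM to 85.6 and 98.2 CPM, by 0.65, and ASNS, asparagine synthetase, by 1.78. ACSS1, a mitochondrial acetyl-CoA synthetase, fell by 0.95, HPGD, which degrades prostaglandins, by 0.81, INKA1 by 0.75 and SEMA5A, a semaphorin, by 0.66. Of 16 mitosis genes and 19 DNA replication genes none passed. The mitotic clusters are not in these sums, and cluster 8 averaged 33.2% of the VGF-high cells both untreated and with TGFB1. The sums therefore cannot decide whether TGFB1 changed the cell cycle, which was not tested. Among the other non-primed cells the mean G1 share was 31.4% untreated and 40.1% with TGFB1. Of 14 primed-state genes 4 rose, among them FN1.

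The total of 325 with TGFB1 was 161 by DESeq2 and 63 without the replicate term, and it ranged from 119 without Control r2 to 641 without TGFBRi r2. It was 166 and 171 without TGFB1 r1 and r2 and 634 without TGFBRi r1. Without TGFB1 r2 the changes of ACSS1 (-0.87) and HPGD (-0.63) did not pass.

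PI3Ki moved hypoxia and stress genes downward in the VGF-high cells. Here 206 genes (1.51%) rose and 302 (2.22%) fell, or 3.73% in all. Cells that PI3Ki moved to other clusters are likewise not in these sums, and cluster 6 held 28.8% and 19.9% of non-primed cells with PI3Ki. Of 11 hypoxia and glycolysis genes 8 fell and none rose, with a median of -0.76, and of 11 ATF4-response genes 7 fell and none rose, with a median of -0.38. BNIP3, a mitophagy receptor induced by hypoxia, fell from 239 and 269 CPM to 83.9 and 100.2 CPM, a log2 change of -1.40 (adjusted p = 1.76e-17). DDIT4 fell from 202 and 175 CPM to 73.9 and 72.8 CPM, by 1.29. The untreated and PI3Ki libraries did not overlap for either gene. LDHA fell by 0.82, PGK1 by 0.76, VEGFA, which is in the hypoxia and the primed-state lists, by 0.83, the pyruvate dehydrogenase kinase PDK1 by 0.98 and the malic enzyme ME1 by 1.32. The helix-loop-helix inhibitors of differentiation rose together, ID1 by 1.43, ID2 by 1.11 and ID3, from 16.7 and 37.9 CPM to 55.6 and 88.4 CPM, by 1.45. TXNIP, a gene that FOXO and carbohydrate-sensing factors control, rose by 1.01 and the receptor ERBB3 by 0.53, and 4 of 16 melanocyte genes rose, PMEL by 0.43, while DCT fell by 0.43. CST1, a secreted cystatin with close paralogs, rose by 2.01. NT5E fell by 0.55 and FN1 by 0.61, and 3 of 14 primed-state genes fell and none rose. The total of 508 was 222 by DESeq2 and 74 without the replicate term, and it ranged from 106 without PI3Ki r2 to 1051 without TGFBRi r2, with 164 without PI3Ki r1, 180 and 267 without Control r2 and r1, and 1044 without TGFBRi r1.

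TGFBRi lowered the ID genes, PMEPA1 and SKIL in the VGF-high cells. In all, 57 genes (0.418%) rose and 112 (0.822%) fell, together 1.24% of those tested, and of 14 TGF-beta target genes these 5 fell and none rose, with a median of -0.0123 over the 14. ID3 fell from 16.7 and 37.9 CPM to 3.98 and 4.98 CPM, a log2 change of -2.63 (adjusted p = 6.66e-19), and the TGFBRi libraries lay below both untreated ones. ID1 fell by 2.38, PMEPA1 by 1.81, SKIL by 1.52 and ID2 by 0.73. COL9A3, a collagen IX chain, fell from 53.2 and 52.2 CPM to 20.01 and 14.8 CPM, by 1.61, and ZNF114 by 2.16. BAALC rose by 0.98, the stress gene NUPR1 by 0.79, the collagen chaperone SERPINH1 by 0.65 and IGFBP2 by 0.56. BNIP3 fell by 0.49, ERBB3 by 0.40, and TRIB3, a target of ATF4, rose by 0.55. The total of 169 was 68 by DESeq2 and 11 without the replicate term, and it ranged from 38 without Control r2 to 649 without TGFBRi r1, with 104 without TGFBRi r2 and 112 without PI3Ki r2. PMEPA1 and SKIL thus moved in opposite directions with TGFB1 and TGFBRi in the same cells, each against the same untreated libraries.

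Whether the VGF-high cells responded to an agent unlike the cells of clusters 0 and 1 was tested as an interaction over 14794 genes. With PI3Ki no gene passed (0%) in edgeR or DESeq2, and 742 of the 14794 had an unadjusted p under 0.05 in edgeR. If no gene differed, a share of 0.05 of the genes would be expected under that level, so the 742 are not read as differences. A gene that did not pass is not thereby shown to respond alike in both classes. In edgeR 13 passed without untreated r2, 17 without the filter on low counts and 8 with all other non-primed cells as the comparison. With TGFBRi 1 gene passed (0.00676%), SPRR2D, and 420 of the 14794 had an unadjusted p under 0.05, which is likewise not read as differences. SPRR2D went from 21.7 and 20.999 CPM to 16.8 and 16.4 CPM in VGF-high cells, but from 6.89 and 6.31 CPM to 2.88 and 2.50 CPM in clusters 0 and 1, a difference in log2 change of 0.92 ± 0.15 (adjusted p = 0.0378). DESeq2 gave an adjusted p of 0.396 for it, and it kept its call in 4 of 16 other settings, with estimates of 0.50 to 1.03.

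With TGFB1, 218 genes (1.47%) responded differently, 31 with a higher and 187 with a lower change in VGF-high cells. The lower ones included 11 of 16 mitosis genes and 9 of 14 histone genes. TOP2A differed by -1.04, CENPA by -1.02, FAM83D by -1.18 and the histone HIST1H3F by -1.17. POU3F1 differed by 0.84, ARID5B by 0.82, CITED1 by 0.71, AHNAK by 0.69 and MYC by 0.56. Of these, POU3F1, CITED1, AHNAK and MYC were also lower in cluster 8 than in cluster 2. Cluster 0 made up 65.2% of clusters 0 and 1 in untreated cells but 14.9% with TGFB1, 53.9% with PI3Ki and 66.6% with TGFBRi, so the comparison cells of TGFB1 were mostly of the S and G2/M cluster. With the phase matched, chosen after seeing the data, no gene passed for cluster 2 against cluster 0, 15 passed for cluster 8 against cluster 1, and TOP2A was at -0.19 and -0.11. With TGFB1 the first pair held 100 and 320 cells of cluster 2 and 119 and 115 of cluster 0 in r1 and r2. Untreated cluster 0 held 1798 and 1173 cells. With so few cells, a gene that did not pass is not shown to respond alike. With all other non-primed cells as the comparison 149 genes passed, of which 23 were among the 218. The 218 was 54 without TGFB1 r2, 142 without Control r1 and 143 without TGFB1 r1.

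Among the markers, SERGEF was the gene whose TGFB1 response differed. It went from 58.0 and 71.6 CPM to 37.9 and 47.9 CPM in VGF-high cells, while in clusters 0 and 1 it was at 23.4 and 33.8 CPM untreated and 23.6 and 33.3 CPM with TGFB1. The difference in log2 change was -0.60 (adjusted p = 0.00393). It kept its call in 11 of 16 other settings, with estimates of -0.88 to -0.39, and lost it in 5: without TGFB1 r2 (adjusted p = 0.274), in both phase-matched pairs (0.929 and 0.218), with all other non-primed cells as the comparison (0.0627) and without the replicate term (0.904).

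VGF-high cells were also found in the study's earlier experiment on untreated WM989 cells, which clustered other cells and took no part in choosing clusters 2 and 8. It held 12531 cells, 9688 of them non-primed, in 8 wells. VGF had a median of 105 CPM and a maximum of 22682 CPM in the non-primed cells, and 1179 of them (12.2%) were over 1836 CPM. By well the share ran from 7.23% through a median of 10.9% to 22.2%. By phase it was 11.6% in G1, 14.05% in S and 9.91% in G2/M, and among primed cells it was 26.9%. By the authors' clusters of non-primed cells it ran from 0.268% to 23.4%. The primed cells had a VGF median of 962 CPM, and summed over cells 1371 CPM against 749 CPM in the non-primed cells. The study had grown this experiment from a mixed and an EGFR/NGFR-high sort, and which well held which is not given in the cell labels, so wells are listed without groups.

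The other markers were higher in the cells over that level. Against the non-primed cells under it, SPRR2D was at a ratio of 3.004, COL6A5 at 2.25, APOD at 2.04, SERGEF at 1.82, TPD52L1 at 1.61 and EYA4 at 1.34, and each was higher in 5 of the 5 wells with at least 50 such cells. By the study's methods each culture was loaded into a pair of chip wells, so these wells are repeat loadings of fewer cultures and not 5 independent replicates. Of the genes highest in both phase-matched pairs of the treatment experiment, apart from VGF, 13 were listed under their symbol, and all 13 were higher, in 5 of 5 wells each, with ratios of 1.44 to 2.32 and a median of 1.88. All 15 lower genes were lower in 5 of 5 wells, with ratios of 0.571 to 0.915 and a median of 0.784. Over 5708 genes, 63.3% were higher and 36.7% lower over all wells, and 31.7% were higher and 12.2% lower in each of the 5 wells. The wells share 1 clone and the grouping was by VGF alone, so this repeats the list in cells the clusters did not use. FN1, at 0.581 and 0.431 in the untreated libraries of the treatment experiment, was at 1.27 here and higher in 3 of 5 wells. Among genes of at least 20 CPM that were higher in all 8 wells, 2 had the highest pooled ratios after VGF. They were NNMT, nicotinamide N-methyltransferase, at 4.26 and the elongation factor gene EEF1A2 at 2.81. By well NNMT ran from 1.55 to 9.72 and EEF1A2 from 1.43 to 3.49. Both were named after their values were seen.

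**Figure D5:**
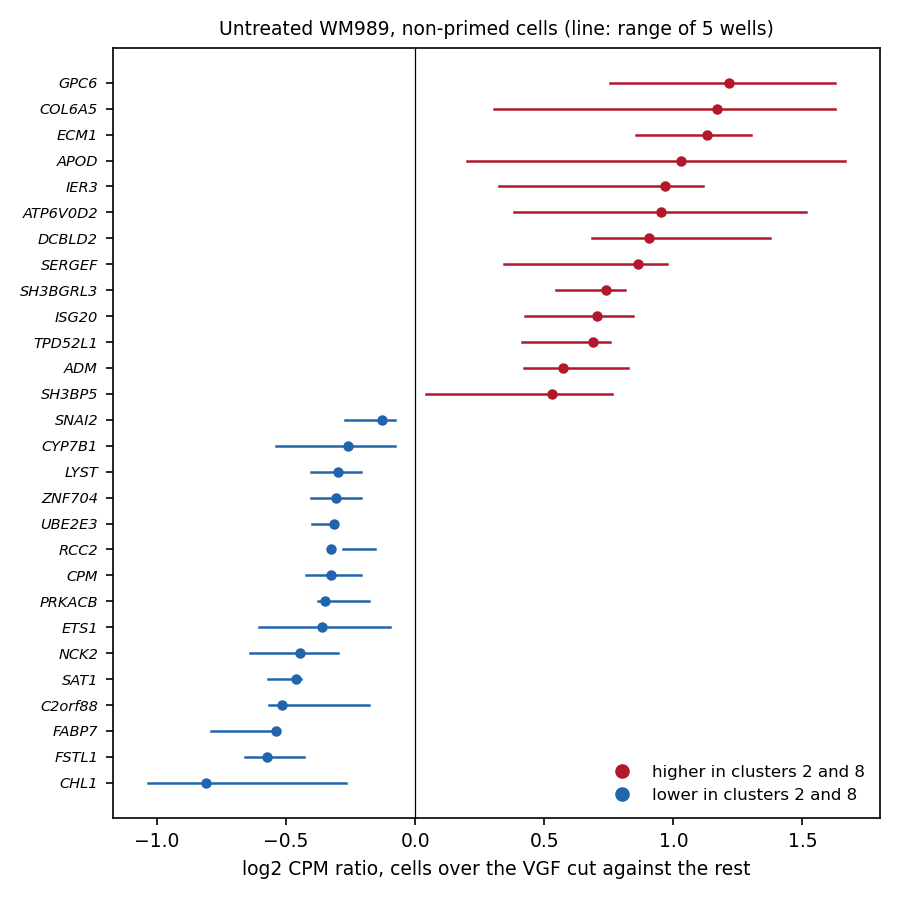
log2 ratio of untreated WM989 non-primed cells over 1836 CPM of VGF to those under it, for the 13 higher and 15 lower genes taken from the treatment experiment. Dots are the pooled ratio and lines the range of 5 wells. All 13 lie above and all 15 below no difference, with medians of 1.88 and 0.784 as ratios.

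In a second melanoma line, WM983B, nearly no cell reached that level. Of its 718 non-primed cells 1 was over 1836 CPM, and VGF stood at 18.3 CPM summed over them. COL6A5 had no UMI in any of the line's 1449 cells, which allows up to 0.0292 CPM. In the non-primed cells SERGEF was at 12.2 CPM, SPRR2D at 1.87 CPM, TPD52L1 at 5.03 CPM and EYA4 at 9.05 CPM. APOD was at 88.1 CPM, within the range of 17.5 to 109 CPM that the VGF-high WM989 cells spanned over libraries. WM983B had no replicate.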

How the data were processed

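Single-cell RNA-seq of WM989 cells was used as deposited. The deposited counts are raw UMI counts per gene and cell, which the authors made with Cell Ranger on hg38 (version not given in the sources used here) without depth normalization. The authors filtered cells on the number of genes and the mitochondrial percent in Seurat, and deposited clusters, phases, scores per cell and mitochondrial percent. The deposited ATAC-seq peaks give a fold ratio over background and a −log10 q-value per library (Bowtie2 2.3.4.1, SAMtools 1.1, MACS2 2.1.1.20160309, per the labels' processing notes). Groups were taken from the sample labels, and r1 and r2 from the deposited cell labels, which were not mapped to the sample names.

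Counts were summed per library over clusters 2 and 8 (Python 3.11.15, numpy 2.4.6, pandas 2.3.3, scipy 1.17.1). Summed counts were fitted with edgeR 4.0.16 in R 4.3.3 (filterByExpr, TMM, quasi-likelihood test, replicate and treatment as terms, all 8 libraries), with Benjamini-Hochberg adjustment at 0.05. The effect in VGF-high cells was compared with that in clusters 0 and 1 by an interaction term with the library as a block. Sharing of replicate numbers was checked: libraries of the same replicate deviated together from their treatment means (Pearson r of 0.279 to 0.594 over 6 pairs and 5581 genes), and the cultures of a number come from 1 well, so the replicate term stayed in. Replicates differed by more than counting noise (chi-square over degrees of freedom 3.50 to 9.15). Cluster against cluster is given as a ratio of CPM with no test. Named genes were the 7 markers, the 10 or 8 at each end of a ratio with 1 direction in 8 libraries, the 8 largest rises and falls of each fit with at least 10 CPM, and members of the gene lists. The phase-matched genes were picked after their values were seen. The members, lists and tests were chosen with earlier results of these data known. The fits were run on simulated counts with 200 changed genes, made without a replicate effect or a difference between VGF-high and comparison cells. The data have both, so the simulation does not check how the fits handle them. Alternatives were DESeq2 1.42.0, RLE size factors, no filter, equal cell numbers, no replicate term, each cluster alone, other comparison cells and each library left out. Lineage names per cell were not analysed here.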

Additional observations from a re-analysis of the deposited data

Results flagged for a closer look

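Each result here was singled out because the change with an agent differed between VGF-high cells and clusters 0 and 1 by the interaction test. With TGFB1 this held for 218 genes. Among those with the largest difference, the change was higher in VGF-high cells for POU3F1 (0.84 on the log2 scale), ARID5B (0.82), TRIM47 (0.71), CITED1 (0.71), AHNAK (0.69), CDCA7 (0.61), MYC (0.56) and ARRB1 (0.55). It was lower for MGP (-1.20), FAM83D (-1.18), HIST1H3F (-1.17), MNS1 (-1.08), TOP2A (-1.04), CENPA (-1.02), NDC80 (-1.02) and KIF2C (-1.01). Cluster 0 made up 14.9% of the comparison cells with TGFB1 and 65.2% untreated, so the cell cycle phase of the comparison cells moved with TGFB1. Among the 7 markers, SERGEF had a lower change with TGFB1 in VGF-high cells (-0.60), and SPRR2D a higher one with TGFBRi (0.92).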

How the results depend on the processing

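The shares stayed on the same side of the threshold under each alternative that has a test, and leaving out r1 or r2 leaves 1 library a treatment and no test. The span of the treatment means was 7.40 to 23.4 points for VGF-high cells (15.98 without r2 and 22.8 without r1) and 4.93 to 7.51 points for cluster 8. Counts of called genes moved more, and the cause was not tested. For TGFB1, PI3Ki and TGFBRi within VGF-high cells (325, 508 and 169), DESeq2 gave 161, 222 and 68, and cluster 8 alone 184, 170 and 103. Cluster 2 alone gave 207, 579 and 119, and equal cell numbers, with fewer cells, 247, 305 and 83. With 1 library left out, the lone library of its arm being taken to vary like the other groups, they ranged over 119 to 641, 106 to 1051 and 38 to 649. For the differences from clusters 0 and 1 (218, 0 and 1), leaving out 1 library gave 54 to 286, 0 to 13 and 0 to 4. DESeq2 gave 136 with TGFB1 and 0 with TGFBRi, and equal cell numbers 58 and 0. Without a filter on low counts PI3Ki gave 17 and TGFBRi 7, and with all other non-primed clusters as comparison 8 and 2, and 149 with TGFB1, 23 of them among the 218. Cluster 2 against cluster 0, added after seeing the data, gave 0 with TGFB1 and 0 with TGFBRi, and cluster 8 against cluster 1 15 with TGFB1 and 3 with PI3Ki. Cluster 0 held only 119 and 115 cells with TGFB1 in r1 and r2. The direction reversed for AHNAK with all other non-primed cells (-0.0895), in cluster 2 against 0 for AHNAK (-0.15), MYC (-0.17), HIST1H3F (0.61), KIF2C (0.19) and NDC80 (0.34), and in cluster 8 against 1 for MYC (-0.36). Of 1293 recomputed values of 85 named gene results, 1091 kept their side of the threshold, 194 kept the direction but no longer passed, 1 newly passed and 7 reversed. A change of direction was counted as reversed only where the value passed in the main fit or in the alternative. The smallest library of VGF-high cells held 2850661 UMIs.

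Without the replicate block, the counts within VGF-high cells were 63, 74 and 11, and the differences 42 with TGFB1, 0 with PI3Ki and 0 with TGFBRi. For the shares, permuting over all libraries without the pairing left the spans at 19.4 and 5.14 points, with exact permutation p = 0.133 and 0.686.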
